A study of Mus musculus with 30 samples.

Results

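Macrophages answer damage and infection with a small set of secreted proteins and enzymes, and 10 of their genes were followed here across 30 RNA-seq libraries: the cytokines *Tnf*, *Il6*, *Il1a*, *Il1b* and *Il18*, the restraining factors *Il1rn*, *Il10* and *Tgfb1*, and the inducible enzymes *Nos2* and *Ptgs2*. They were taken by symbol from the 55573 genes of the tables of bone marrow-derived macrophages (BMDMs) and of retinal pigment epithelium (RPE), and all 10 were found once in both. The study asked why mice that lack the receptor tyrosine kinase MERTK differ in phenotype with the way the knockout was made. Libraries were polyA RNA of 4 genotypes per tissue, C57BL/6J wild type (B6 WT) and 3 separately made knockout lines named Mertk-/-V1, Mertk-/-V2 and Mertk-/-V3. The labels give C57BL/6J as the strain of all 4.

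Mertk-/-V1 carries a neomycin cassette in place of one exon of the kinase domain, was made in embryonic stem cells of another inbred strain and was then backcrossed to C57BL/6, and it keeps sequence of that donor strain around *Mertk* on chromosome 2. Mertk-/-V2 lacks another kinase exon and Mertk-/-V3 lacks a pair of exons near the start of the gene, and both were made on the C57BL/6 background. Per the paper's typing of both lines, part of their genome is of the C57BL/6NJ substrain and not C57BL/6J, a larger part in Mertk-/-V3. So each knockout line differs from B6 WT in background as well as at *Mertk*. The deletions are in the germline, so every cell of these mice carries them. BMDMs were bone marrow cells grown in medium conditioned by L929 cells, with 3 libraries per genotype and no inflammatory stimulus named. RPE was taken at postnatal day 25 by shaking cells off the posterior eyecup, without culture, with 6 libraries each of B6 WT and Mertk-/-V1 and 3 each of Mertk-/-V2 and Mertk-/-V3. The labels call the libraries biological replicates without naming the animals, so the p-values measure the spread between these samples. Recovered reads per library ran from 16629659 to 25653814 in BMDMs and from 14137666 to 34124049 in RPE.

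MERTK, with TYRO3 and AXL, belongs to the TAM family, receptors that bind GAS6 and protein S on dying cells. In macrophages they drive uptake of those cells and are known to restrain signalling from Toll-like receptors and the cytokines that follow it, and in the RPE MERTK drives the daily uptake of shed photoreceptor outer segments. IL-1 alpha and IL-1 beta act on one receptor, IL1R1, and the product of *Il1rn*, the IL-1 receptor antagonist, occupies that receptor without signalling.

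*Il1a* (chromosome 2, 129299610 to 129309972, minus strand) and *Il1b* (chromosome 2, 129364570 to 129371139, minus strand) lie 0.497 and 0.562 Mb from *Mertk* (128698956 to 128802894) on the GRCm38 build. *Il1rn* (24336853 to 24351494, plus strand) is on the same chromosome but 104 Mb away, and the other 7 genes are on other chromosomes. *Tnf* lies on chromosome 17 (35199381 to 35202007, minus strand), *Il6* on 5 (30013114 to 30019981) and *Il18* on 9 (50554827 to 50581840). *Il10* (131019845 to 131024974) and *Ptgs2* (150100031 to 150108227) are on chromosome 1, *Tgfb1* on 7 (25687002 to 25705077) and *Nos2* on 11 (78920787 to 78960254), and these 6 are on the plus strand. All 10 are annotated as protein-coding, and their values count reads over the whole gene. Below are the 250 bases before the start of the genes on which the results turn most, that is the IL-1 genes and *Tnf*, which differed or varied most between libraries, and *Il6*, which was almost unread. They are the RefSeq reference (GRCm38.p6), written in the direction of transcription, and they show the C57BL/6J sequence and not that of the donor-strain stretch of Mertk-/-V1. Capitals mark matches on either strand to the kappaB consensus, to TATAAA, to TGANTCA (bound by AP-1) and to GAGGAA (bound by PU.1).
Il1rn, upstream start (chr2:24336610-24336859, plus strand): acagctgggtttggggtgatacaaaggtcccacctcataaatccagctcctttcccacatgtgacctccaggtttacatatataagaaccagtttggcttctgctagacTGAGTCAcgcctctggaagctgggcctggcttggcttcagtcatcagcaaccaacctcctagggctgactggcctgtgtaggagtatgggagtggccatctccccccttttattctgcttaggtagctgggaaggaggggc
Il1rn, downstream start (chr2:24345121-24345370, plus strand): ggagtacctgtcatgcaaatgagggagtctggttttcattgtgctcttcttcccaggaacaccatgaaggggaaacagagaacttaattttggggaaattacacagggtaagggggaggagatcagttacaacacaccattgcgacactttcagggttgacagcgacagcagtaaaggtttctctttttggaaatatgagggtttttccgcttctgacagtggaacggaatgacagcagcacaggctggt
Il1a (chr2:129309973-129310222, minus strand): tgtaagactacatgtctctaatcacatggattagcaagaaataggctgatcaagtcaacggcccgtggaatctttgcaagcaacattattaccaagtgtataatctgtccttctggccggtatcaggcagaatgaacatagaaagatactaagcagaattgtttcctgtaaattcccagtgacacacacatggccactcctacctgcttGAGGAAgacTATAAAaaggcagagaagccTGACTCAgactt
Il1b (chr2:129371140-129371389, minus strand): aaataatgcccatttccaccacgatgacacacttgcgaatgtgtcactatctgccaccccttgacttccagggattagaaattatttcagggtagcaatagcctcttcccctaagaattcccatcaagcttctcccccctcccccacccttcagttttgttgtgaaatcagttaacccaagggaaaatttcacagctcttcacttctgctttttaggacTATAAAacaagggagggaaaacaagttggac
Tnf (chr17:35202008-35202257, minus strand): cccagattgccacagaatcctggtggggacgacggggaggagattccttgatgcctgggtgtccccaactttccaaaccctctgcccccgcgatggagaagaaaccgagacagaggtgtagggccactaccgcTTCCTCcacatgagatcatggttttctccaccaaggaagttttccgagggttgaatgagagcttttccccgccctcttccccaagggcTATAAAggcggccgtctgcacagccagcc
Il6 (chr5:30012864-30013113, plus strand): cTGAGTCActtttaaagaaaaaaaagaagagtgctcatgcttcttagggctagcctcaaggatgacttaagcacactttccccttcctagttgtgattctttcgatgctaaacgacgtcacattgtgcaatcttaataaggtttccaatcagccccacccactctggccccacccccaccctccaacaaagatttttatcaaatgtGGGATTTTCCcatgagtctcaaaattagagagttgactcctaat
Windows were found for 8 of the 10 genes, *Il10* and *Nos2* having none, and *Il1rn* has one more window that overlaps the downstream one shown. Of all 32851 promoter windows of this length, 7.25% held the kappaB consensus, 12.4% TATAAA, 6.75% TGANTCA and 23.3% GAGGAA. Matches to TATAAA stood 32 bases before the start of *Il1a*, 31 before that of *Il1b* and 29 before that of *Tnf*, and in neither *Il1rn* window shown. The kappaB consensus was matched in the *Il6* window, 44 bases before the start, and in that of *Tgfb1*, and in no other window of these genes. A match describes letters only, and its absence from 250 bases says nothing of the factor.

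The targeted gene was read first, as a check of the labels. In BMDMs *Mertk* fell in Mertk-/-V1 (846.7 to 882.8 normalized counts, reads per gene divided by one size factor per library, against 2414 to 2881 in B6 WT) and in Mertk-/-V3 (651.0 to 723.1), and rose in Mertk-/-V2 (3532 to 3589), whose excised exon does not stop reads over the rest of the gene. In RPE it fell in Mertk-/-V1 and Mertk-/-V3 by 1.46 and 2.01 on the log2 scale. In Mertk-/-V2 RPE the *Mertk* difference, 0.39 ± 0.25 (SE), did not pass (limma adjusted p = 0.954). Of the other TAM receptors *Axl* passed in no comparison, and *Tyro3*, also on chromosome 2, fell in Mertk-/-V1 RPE by 1.31 ± 0.17 (limma adjusted p = 0.00131). BMDM libraries held all 12 macrophage markers, summed to between 352559 and 395114 normalized counts with overlap between genotypes, though *C1qa* fell by 0.39 ± 0.06 in Mertk-/-V1 and by 0.31 ± 0.06 in Mertk-/-V3, while the 11 RPE markers summed to between 22.8 and 58.7. RPE libraries held the RPE markers at 223928 to 923600, but also 10 rod photoreceptor genes at 35889 to 889479 and the macrophage list at 6829 to 13256, most of the last from *Csf1r*, which ran from 3404 to 10178 there. Fewer cells of a type and less RNA per cell cannot be told apart in such bulk samples.

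Per length of transcript, *Tgfb1*, a cytokine that limits T cells and macrophages, was the most abundant of the 10 in BMDMs, at 114.6 to 130.3 RPKM over the 12 libraries. *Tnf*, an early cytokine of the macrophage response, followed at 24.7 to 30.4 RPKM, with no overlap between the genes. *Il18*, a cytokine stored as a precursor and cut by caspase-1, was at 6.29 to 8.73 RPKM, and *Il1rn* at 3.39 to 8.67, so these neighbours overlapped. *Il10*, which shuts off cytokine transcription in macrophages, was at 0.299 to 0.937 RPKM. *Il1a*, *Ptgs2* and *Il1b* had means of 0.120, 0.0543 and 0.0397 RPKM and ranges that overlapped each other. *Il6* and *Nos2* were last, with means of 0.00377 and 0.00174 RPKM.

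In RPE *Il18* led at 14.8 to 39.5 RPKM, and the only other member to reach its lowest value was *Il1b*, at 14.9 in one library. *Il1rn* (1.46 to 11.6), *Tgfb1* (2.24 to 4.52), *Il1a* (0.585 to 7.87) and *Tnf* (0.382 to 7.97) followed and could not be ordered beyond their spread. *Il1b*, *Ptgs2*, which makes the prostaglandin precursor, and *Nos2*, the inducible nitric oxide synthase, had means of 1.09, 0.405 and 0.132 RPKM, the first set by one library described further on. *Il6* and *Il10* were at or near 0. These RPKM values rest on reads recovered from tables normalized apart for each tissue, so no test was made between the tissues' levels.

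**Figure D1:**
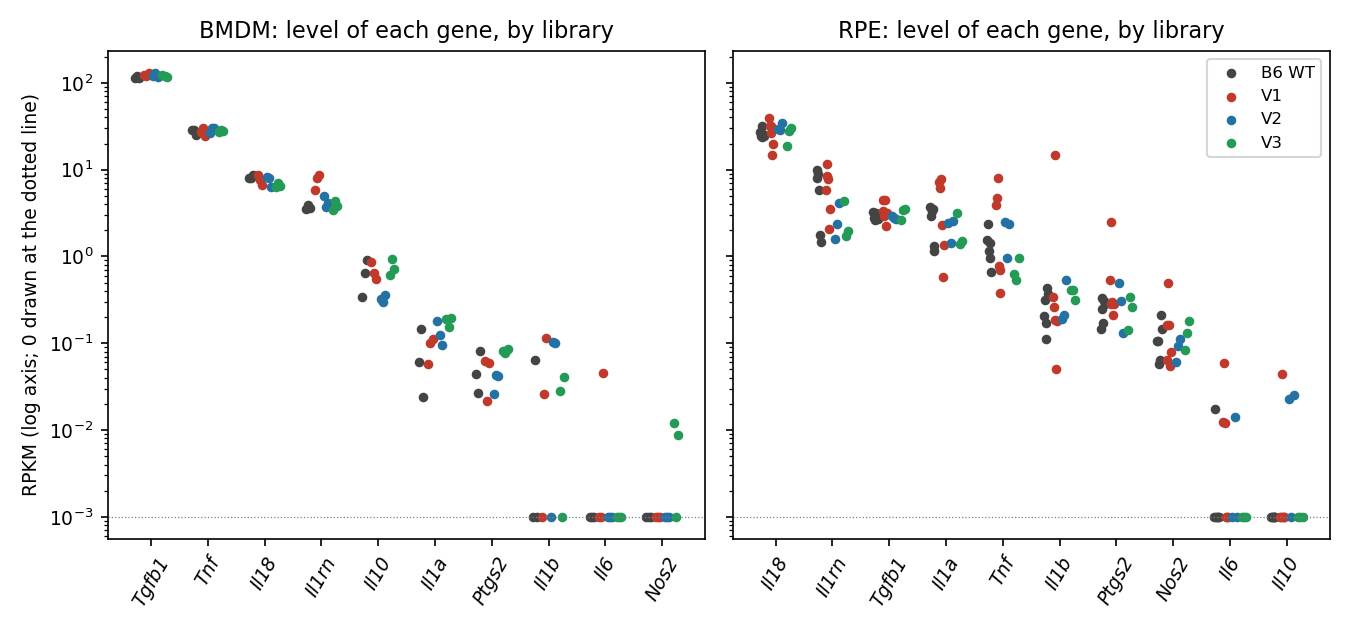
RPKM on a log axis of each gene in every BMDM library (left, 12) and RPE library (right, 18), coloured by genotype and ordered by the tissue mean, with values of 0 drawn on the dotted line. *Tgfb1* and *Tnf* led in BMDMs at 114.6 to 130.3 and 24.7 to 30.4 RPKM, *Il18* led in RPE at 14.8 to 39.5, and *Il6* lay at or near 0 in both.

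The BMDM comparisons asked what the loss of MERTK did to these genes in BMDMs, and what differed between knockouts. Of the 10 genes 5 reached a mean of 10 normalized counts over the 12 libraries and were tested, and *Il1rn* was the only one to pass in any comparison (limma on log2 of the normalized count plus 1, Benjamini-Hochberg adjusted p under 0.05 over 13420 genes). *Il1rn* (ENSMUSG00000026981) stood at 394, 436 and 412 normalized counts in B6 WT and at 661, 910 and 984 in Mertk-/-V1. It stood at 553, 424 and 455 in Mertk-/-V2 and at 387, 501 and 441 in Mertk-/-V3. All 3 Mertk-/-V1 libraries were above all 9 others, while B6 WT, Mertk-/-V2 and Mertk-/-V3 overlapped. The Mertk-/-V1 level was 2.03-fold that of B6 WT, a log2 fold change of 1.02 ± 0.14 (SE, 3 libraries against 3, limma adjusted p = 0.000852). Of all genes tested 7.07% passed in this comparison and 30.9% had groups that did not overlap. The change was under the study's added threshold for a differentially expressed gene, a log2 fold change of 1.25, which 0.425% of genes met with the adjusted p.

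Against the mean of the other 2 knockouts *Il1rn* was also higher in Mertk-/-V1, by 0.88 ± 0.12 (limma adjusted p = 0.00131), in a comparison where 0.991% of genes passed and 4.32% had groups that did not overlap. Neither Mertk-/-V2 (0.20 ± 0.14, adjusted p = 0.450) nor Mertk-/-V3 (0.09 ± 0.14, adjusted p = 0.798) passed against B6 WT for *Il1rn* in the limma fit, where 4.61% and 1.17% of genes did. Leaving out any one library of the groups compared kept *Il1rn* past the threshold in both Mertk-/-V1 comparisons, with a log2 fold change of 0.91 to 1.19 against B6 WT.

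Immediate early genes, which rise within minutes of handling or serum, also differed between genotypes, but in Mertk-/-V1 and Mertk-/-V2 alike. The 8 listed genes summed to 14492 to 15957 normalized counts in B6 WT and 13398 to 16488 in Mertk-/-V3, but to 8977 to 9714 in Mertk-/-V1 and 9730 to 10055 in Mertk-/-V2. In Mertk-/-V1 5 of the 8 fell and *Atf3* rose, and in Mertk-/-V2 4 fell and *Atf3* rose. Of all genes 3.15% fell and 3.92% rose in Mertk-/-V1, and 2.36% fell and 2.24% rose in Mertk-/-V2. *Fos*, a subunit of AP-1, changed by -2.60 ± 0.15 in Mertk-/-V1 and by -2.46 ± 0.15 in Mertk-/-V2 on the log2 scale, and *Dusp1*, a phosphatase that ends MAP kinase signalling, by -2.98 ± 0.12 and -2.93 ± 0.12. *Fos* was at 389 to 490 normalized counts in Mertk-/-V1 and 476 to 520 in Mertk-/-V2, beside 2377 to 3038 in B6 WT, and the *Il1rn* difference in Mertk-/-V2 was the 0.20 ± 0.14 given above. With the mean of the list as a covariate, a fit chosen after the data were seen, the *Il1rn* difference was 0.71 ± 0.57 against B6 WT (limma adjusted p = 0.881) and 0.69 ± 0.36 against the other knockouts (adjusted p = 0.977), and the call was lost. In that fit 0.0149% and 0.0298% of all genes passed, with a covariate that itself differs between the genotypes, and the part of handling in the *Il1rn* difference was not tested.

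**Figure D2:**
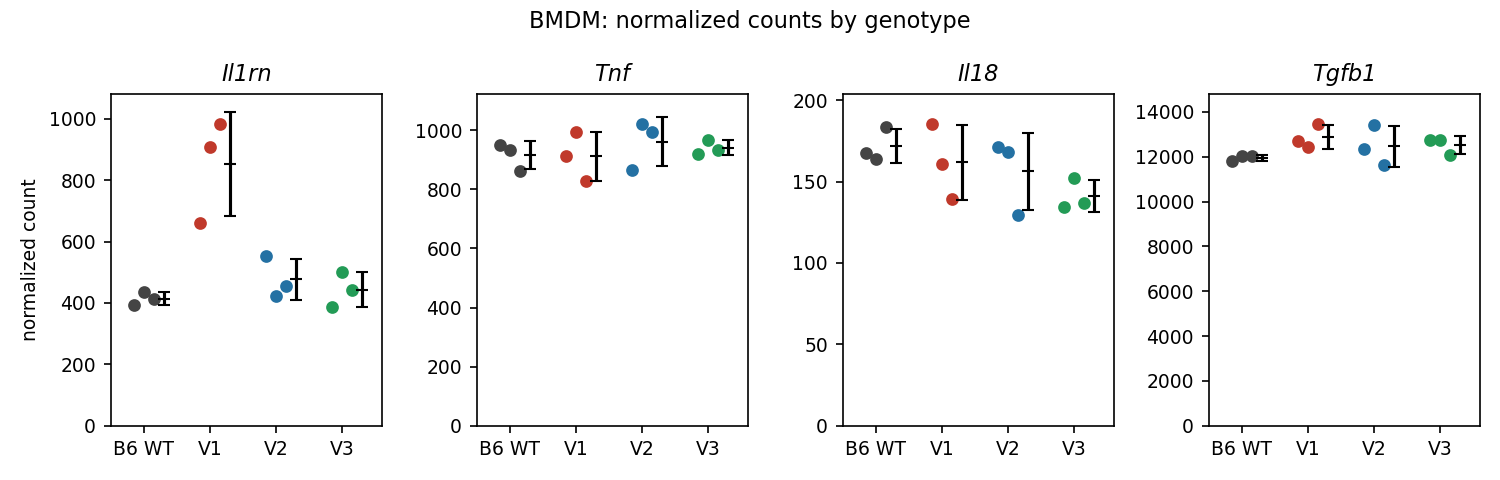
Normalized counts in BMDMs of 4 of the tested genes, by genotype, with one point per library (n = 3) and the mean ± SD in black beside the points. *Il1rn* lay at 661 to 984 in Mertk-/-V1 and at 387 to 553 in the other 9 libraries, while *Tnf*, *Il18* and *Tgfb1* passed in no comparison.

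The other 4 genes tested in BMDMs passed in no comparison, by limma, edgeR or DESeq2. *Tnf* was at 862 to 952 normalized counts in the B6 WT libraries, 829 to 996 in those of Mertk-/-V1, 867 to 1023 in Mertk-/-V2 and 920 to 969 in Mertk-/-V3, with all groups overlapping. Its log2 fold changes against B6 WT were -0.01, 0.07 and 0.04 in Mertk-/-V1, V2 and V3, each with an SE of 0.08. *Tgfb1* was at 11810, 12022 and 12010 in B6 WT and at 12714, 12444 and 13472 in Mertk-/-V1, groups that did not overlap, but the difference was 0.11 ± 0.05 (limma adjusted p = 0.237). *Tgfb1* in Mertk-/-V3 (12058 to 12766) also lay above B6 WT in every library, by 0.07 ± 0.05 (limma adjusted p = 0.566), where 25.4% of genes had groups that did not overlap.

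*Il18* was at 164 to 184 normalized counts in B6 WT and at 134 to 152 in Mertk-/-V3, again without overlap, and the log2 fold change was -0.28 ± 0.14 (limma adjusted p = 0.332). Mertk-/-V1 (139 to 186) and Mertk-/-V2 (129.2 to 171) overlapped B6 WT for *Il18*. No member had an unadjusted p under 0.05 in Mertk-/-V3, and 1, *Il10*, did in Mertk-/-V2, where 21.4% of all genes did and no member had groups without overlap, beside 22.7% of all genes. *Il10* was read thinly, at 9.04, 17.1 and 24.4 in B6 WT and at 8.49, 8.07 and 9.50 in Mertk-/-V2. Its difference there was -0.79 ± 0.35, with an unadjusted p of 0.0419 that did not survive adjustment (limma adjusted p = 0.215).

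The 5 genes below the filter were close to unread in every BMDM genotype. *Il6*, a cytokine that drives the acute phase, had no read in 11 of 12 libraries and 2.25 normalized counts in one of Mertk-/-V1. *Nos2* had none in 10 of 12, with 1.09 and 0.803 in 2 libraries of Mertk-/-V3. *Il1b* ran from 0 to 4.50, *Il1a* from 0.977 to 8.03 and *Ptgs2* from 2.00 to 8.03 over the 12 libraries. *Il1a* and *Ptgs2* were read in all 12 libraries, with 59 and 62 reads in total, and *Il1b* in 7, with 19. For *Il6*, *Nos2* and *Il1b*, a library with 0 reads allows up to 3, counting error only. *Il1a* was lowest in B6 WT (2.47, 5.71 and 0.977) and highest in Mertk-/-V3 (7.65, 6.40 and 8.03), without overlap, as for 25.4% of the genes over the filter. That difference had p = 0.1 in an exact two-sided permutation test, the smallest that 3 against 3 allows, and an adjusted p of 1 over the 21 tests of genes under the filter.

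Of 53 pathway genes tested in BMDMs around these members, 10 passed in Mertk-/-V1, 6 in Mertk-/-V2, none in Mertk-/-V3 and 2 in Mertk-/-V1 against the other knockouts, beside 7.07%, 4.61%, 1.17% and 0.991% of all genes. With the immediate early list as a covariate, as above and added after the data were seen, none of the 53 passed in any of these limma comparisons, where 2, 0, 124 and 4 of 13420 genes did, so every pathway call given here was lost in that fit. Of the 10 tested cytokine receptors 2 fell in Mertk-/-V1 and in Mertk-/-V2, and none rose. They were the chains of the IL-10 receptor, *Il10ra* (-0.41 ± 0.05 and -0.42 ± 0.05) and *Il10rb* (-0.17 ± 0.04 and -0.16 ± 0.04), and 3.15% and 2.36% of all genes fell in these comparisons. *Il10ra* was at 1282 to 1327 normalized counts in the B6 WT libraries, 953 to 1031 in Mertk-/-V1, 923 to 1060 in Mertk-/-V2 and 1227 to 1255 in Mertk-/-V3. The median log2 fold change of the list was -0.004 in Mertk-/-V1, beside -0.005 over all genes.

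Of the 11 tested genes for maturation, release and binding, 4 rose in Mertk-/-V1, where 3.92% of all genes did: the inflammasome sensors *Nlrc4* (0.43 ± 0.08) and *Nlrp3* (0.26 ± 0.07), the latent TGF-beta binding protein *Ltbp3* (0.27 ± 0.06) and the protease *Furin* (0.20 ± 0.05). *Nlrp3* also rose in Mertk-/-V2, by 0.27 ± 0.07, where 2.24% of all genes rose. The list's median was 0.20 in Mertk-/-V1, beside -0.005 over all genes. Of the 16 genes of Toll-like receptor and NF-kappaB signalling, with a median of 0.08 in Mertk-/-V1, *Relb*, a subunit of NF-kappaB, rose in Mertk-/-V1 (0.58 ± 0.10, limma adjusted p = 0.00364) and *Irf5* fell by 0.20 ± 0.05, while in Mertk-/-V2 *Irak1* rose by 0.19 ± 0.04 and *Ticam1* fell by 0.33 ± 0.07. Against B6 WT 3.15% of all genes fell in Mertk-/-V1 and 2.36% in Mertk-/-V2. *Relb* was at 240 to 301 normalized counts in B6 WT and at 371 to 430 in Mertk-/-V1, and was also higher in Mertk-/-V1 than in the mean of the other knockouts (0.40 ± 0.08, limma adjusted p = 0.0339), where 0.991% of all genes passed.

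Of the 10 tested enzymes and receptors of the prostaglandin, nitric oxide and arginine pathways, 1 fell in Mertk-/-V1, where 3.15% of all genes did: *Ptgs1*, the constitutive partner of *Ptgs2*, at 749 to 771 normalized counts in B6 WT and 442 to 521 in Mertk-/-V1 (-0.70 ± 0.09, limma adjusted p = 0.000829). It was also lower than in the mean of the other knockouts (-0.50 ± 0.08, adjusted p = 0.00598), where 0.991% of all genes passed. Of the 6 other cytokines tested, *Csf1*, the growth factor of macrophages, rose in Mertk-/-V1 (1.11 ± 0.21, limma adjusted p = 0.00843) and in Mertk-/-V2 (0.93 ± 0.21, adjusted p = 0.0260), from 110 to 172 normalized counts in B6 WT to 268 to 326 and 175 to 335. Of all genes 3.92% and 2.24% rose in these comparisons. In Mertk-/-V3, where no pathway gene passed in the limma fit, 12 of the 53 had an unadjusted p under 0.05, and 15.9% of all genes did.

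Within genotypes, the genes whose log2 values followed *Il1rn* most closely over the 12 BMDM libraries were *Haus3* (Pearson r = 0.931), *Parp16* (r = 0.928) and *Meis1* (r = 0.908), each after the genotype means were subtracted. These are the highest of 13420 genes, which share libraries and scaling with *Il1rn*, and are given as a description.

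**Figure D3:**
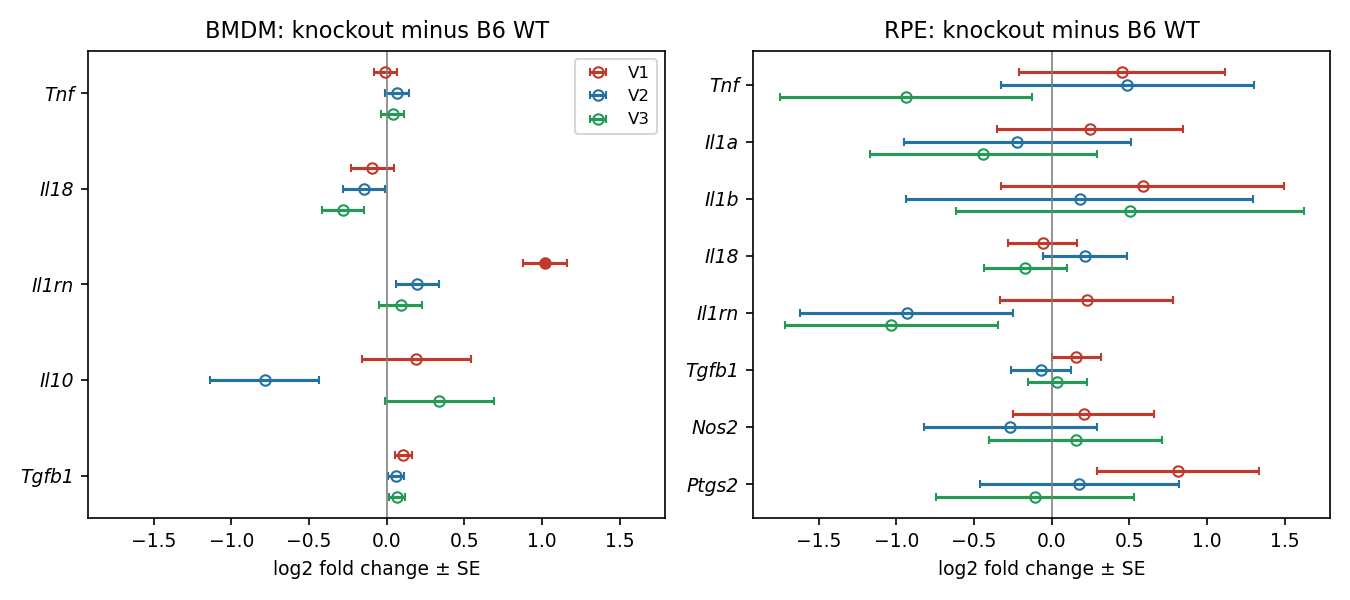
Log2 fold change of each knockout against B6 WT with its SE from limma, for the 5 genes tested in BMDMs (left) and the 8 in RPE (right), with filled points where the adjusted p was under 0.05. Only *Il1rn* in Mertk-/-V1 BMDMs, at 1.02 ± 0.14, is filled, and the RPE errors are wider.

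In RPE 8 of the 10 genes were tested and none passed in any of the 4 comparisons in the limma fit without a replicate block. Their log2 fold changes against B6 WT ran from -0.06 to 0.81 in Mertk-/-V1, from -0.93 to 0.49 in Mertk-/-V2 and from -1.03 to 0.50 in Mertk-/-V3, with the lowest limma adjusted p at 0.815, 0.958 and 0.522. Few genes of any kind passed: 0.388% (73 of 18832), 0.069% (13) and 0.069% (13), and 0.207% (39) for Mertk-/-V1 against the mean of the other knockouts. None of the 8 had an unadjusted p under 0.05 against B6 WT, and DESeq2, which gave *Il1b* no adjusted p, and edgeR called none either, with 0.292% to 1.07% and 0.0531% to 0.398% of all genes passing. Against the mean of the other knockouts *Il1rn* alone had one, with a log2 fold change of 1.21 ± 0.56 in Mertk-/-V1 (unadjusted p = 0.0458 in the fit across all genes, limma adjusted p = 0.516), and 9.56% of all genes had one there. The median over the 8 was 0.24, 0.05 and -0.14 in the 3 lines in order, beside 0.02, 0.02 and -0.01 over all genes. None of the 8 had groups without overlap in any comparison, and 1.09%, 5.66% and 4.32% of all genes did against B6 WT and 0.483% for Mertk-/-V1 against the other knockouts. None of the 59 pathway genes tested in RPE passed, and 8, 1 and 6 of them had an unadjusted p under 0.05 against B6 WT in Mertk-/-V1, V2 and V3, beside 6.81%, 5.47% and 11.1% of all genes (limma).

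With the replicate number as a block, no member passed in Mertk-/-V1 against B6 WT, where the genes called rose from 73 to 131 (0.696%). The block sets Mertk-/-V2 and Mertk-/-V3 beside replicates 1 to 3 of the other genotypes, and there *Il1rn* passed in Mertk-/-V2 (-1.75, limma adjusted p = 0.0323), and *Il1rn* (-1.85, adjusted p = 0.00589), *Tnf* (-1.97, adjusted p = 0.0314) and *Il1a* (-1.37, adjusted p = 0.0240) in Mertk-/-V3. In Mertk-/-V1 against the mean of the other knockouts, *Il1rn* (2.02, limma adjusted p = 0.00285), *Il1a* (1.51, adjusted p = 0.0122) and *Tnf* (1.71, adjusted p = 0.0495) passed. Of all genes 3.75%, 29.8% and 12.4% passed in these 3 blocked comparisons in order.

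Libraries of one genotype differed widely in RPE. In B6 WT and Mertk-/-V1, replicates 1 to 3 and replicates 4 to 6 were taken as sets, for which the labels name no batch. An earlier look at these same data had found the sets to differ, so the p-values between them describe the split and are not independent evidence for it. Between these sets 40.6% of 18832 genes differed in a fit of both genotypes. The split was not clean for replicate 4. With group means removed, B6 WT replicate 5 correlated at 0.724 and 0.744 with Mertk-/-V1 replicates 5 and 6, but B6 WT replicate 4 at -0.180 and -0.0704. Mertk-/-V2 and Mertk-/-V3 have replicates 1 to 3 only, and in them set and genotype cannot be told apart. Of the 8 genes, *Tnf*, *Il1a*, *Il1rn* and *Il18* were lower in replicates 4 to 6. The differences were -2.07 ± 0.44 for *Tnf* (limma adjusted p = 0.00770), -1.86 ± 0.40 for *Il1a* (adjusted p = 0.00770), -1.63 ± 0.39 for *Il1rn* (adjusted p = 0.00947) and -0.63 ± 0.15 for *Il18* (adjusted p = 0.00960). *Il1b*, *Ptgs2*, *Nos2* and *Tgfb1* did not pass. Replicate 4 lay within the range of replicates 1 to 3 for *Tnf* and *Il1a* in B6 WT and for *Il1rn* in Mertk-/-V1. It lay below that range for these genes in the other genotype, and for *Il18* in both.

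*Il1rn* in B6 WT RPE was at 1544, 1227 and 1323 normalized counts in replicates 1 to 3 and at 849, 237 and 196 in replicates 4 to 6. In Mertk-/-V1 it was at 869, 1245 and 1737 and then at 1039, 293 and 444. Mertk-/-V2 (232, 324 and 599) and Mertk-/-V3 (588, 228 and 273) lay within the range of B6 WT replicates 4 to 6, and below all 3 of B6 WT replicates 1 to 3, while 33.2% and 36.9% of all genes had no overlap with those 3 libraries. Against all 6 B6 WT libraries *Il1rn* differed by -0.93 ± 0.68 and -1.03 ± 0.68 on the log2 scale. Set against replicates 1 to 3 alone, the differences were -1.93 ± 0.58 (limma adjusted p = 0.368) and -2.03 ± 0.58 (adjusted p = 0.114), and against replicates 4 to 6 alone 0.06 and -0.04, so the size of the *Il1rn* difference turned on which B6 WT libraries were used. Rod genes, summed over their list, were at 35889 to 126851 in B6 WT replicates 1 to 3 and 136967 to 350257 in replicates 4 to 6. They were at 144297 to 240315 in Mertk-/-V2 and 60467 to 420017 in Mertk-/-V3. The 7 listed neutrophil genes summed to 611 to 1343 in B6 WT replicates 1 to 3 and 147 to 697 in replicates 4 to 6. In Mertk-/-V1 these sums were 743 to 2723 and 84.3 to 962. They were 143 to 331 in Mertk-/-V2 and 92.3 to 741 in Mertk-/-V3. The rod list was also fitted as a covariate, as given at the end, and the cause of the *Il1rn* values was not tested.

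*Tnf* in RPE was at 70.9, 108 and 50.5 normalized counts in B6 WT replicates 1 to 3 and at 173, 204 and 352 in those of Mertk-/-V1, without overlap, as for 13.4% of all genes tested. In replicates 4 to 6 it was at 61.1, 38.0 and 26.7 in B6 WT and at 30.2, 15.8 and 25.9 in Mertk-/-V1, with overlap. Mertk-/-V2 had 110, 39.0 and 102, and Mertk-/-V3 had 24.5, 21.2 and 40.1. Within replicates 1 to 3 the Mertk-/-V1 difference in *Tnf* was 1.66 ± 0.34 (limma adjusted p = 0.184), within replicates 4 to 6, where 0.00531% of genes passed, it was -0.75 ± 0.42 (adjusted p = 0.598), and over both sets 0.45 ± 0.66. The difference between the sets, -2.41 ± 0.57, had an unadjusted p of 0.00149 and an adjusted p of 0.719, and 0 of 18832 genes passed in that limma test. *Il1a* (-1.62 ± 0.69) and *Il18* (-0.64 ± 0.25) also had an unadjusted p under 0.05 there, but a limma adjusted p of 0.719. The share of all genes with an unadjusted p under 0.05 in that test was not taken, so these unadjusted values are given as a description.

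*Il1a*, released by dying cells as well as by macrophages, was at 205, 157 and 176 normalized counts in B6 WT replicates 1 to 3 and at 381, 323 and 419 in Mertk-/-V1, again without overlap (13.4% of all genes), then at 181, 62.9 and 54.9 and at 107, 29.2 and 60.7 in replicates 4 to 6. Within replicates 1 to 3 the *Il1a* difference was 1.06 ± 0.15 (limma adjusted p = 0.0658, where 0.122% of genes passed), and within replicates 4 to 6 it was -0.56 ± 0.63 (adjusted p = 0.753). Without replicate 3 of Mertk-/-V1 the first became 0.97 ± 0.16 for *Il1a* (adjusted p = 0.114) and 1.35 ± 0.32 for *Tnf* (adjusted p = 0.213). Mertk-/-V2 had *Il1a* at 127, 70.4 and 132, and Mertk-/-V3 at 151, 66.1 and 75.6.

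*Il18* was at 794, 699 and 878 normalized counts in B6 WT replicates 1 to 3 and at 648, 638 and 615 in replicates 4 to 6, and in Mertk-/-V1 at 1097, 871 and 880 and at 653, 385 and 460. Mertk-/-V2 (739 to 924) and Mertk-/-V3 (464 to 782) overlapped B6 WT for *Il18*. *Tgfb1* was the steadiest of the 8, at 328 to 457 in B6 WT, 285 to 599 in Mertk-/-V1, 346 to 397 in Mertk-/-V2 and 319 to 452 in Mertk-/-V3.

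**Figure D4:**
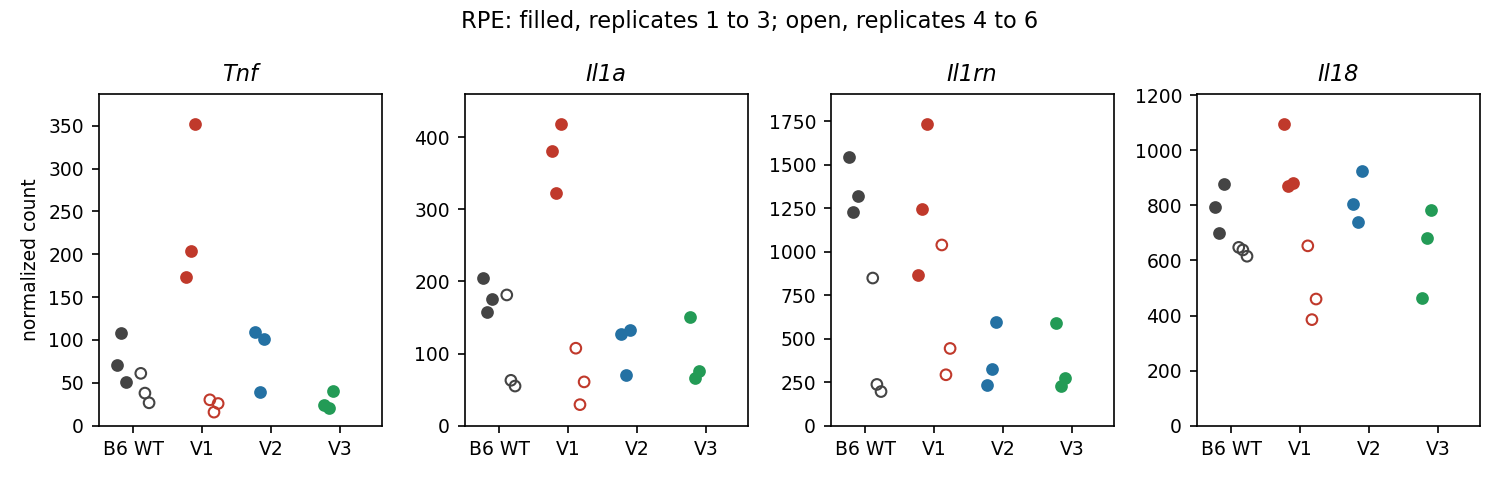
Normalized counts in RPE of 4 genes by genotype, one point per library, with replicates 1 to 3 filled and replicates 4 to 6 open. *Tnf* and *Il1a* in Mertk-/-V1 lay at 173 to 352 and 323 to 419 in the filled set and at 15.8 to 30.2 and 29.2 to 107 in the open set.

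Other lists moved with the sets and genotypes in RPE. The immediate early genes summed to 4675 to 7033 normalized counts in B6 WT and 8464 to 10693 in Mertk-/-V1 in replicates 1 to 3, and to 2717 to 4214 and 3545 to 5752 in replicates 4 to 6. Summed RPE markers were lower in replicates 4 to 6, at 558264 to 716973 in B6 WT and 223928 to 483928 in Mertk-/-V1, against 731855 to 923600 and 549960 to 689382. Of the 12 macrophage and microglia genes 2 rose in Mertk-/-V1 RPE, *C1qa* (1.04 ± 0.21, limma adjusted p = 0.0346) and *Fcgr1* (1.13 ± 0.18, adjusted p = 0.00506), where 0.287% of all genes did. *C1qa* was at 160 to 298 normalized counts in the B6 WT libraries, 303 to 790 in Mertk-/-V1, 319 to 423 in Mertk-/-V2 and 279 to 482 in Mertk-/-V3. The list's median was 0.75, 0.64 and 0.36 in the 3 knockouts, while its summed level (7981 to 13256 in B6 WT and 6848 to 12252 in Mertk-/-V1) overlapped. The macrophage list was also fitted as a covariate, as given at the end, and the cause of the *Tnf*, *Il1a* and *Il1rn* values was not tested.

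One RPE library stood apart for the inducible genes. *Il1b* in RPE was at 5.55 to 19.7 normalized counts in the 6 libraries of B6 WT, 9.67 to 26.7 in Mertk-/-V2 and 15.4 to 19.0 in Mertk-/-V3. In Mertk-/-V1 it was at 17.6, 13.3, 8.45, 2.43 and 7.87 in 5 libraries and at 764 in replicate 3. *Ptgs2* was at 311 in that library and at 15.5 to 66.6 in the other 17, and *Nos2* at 59.3 against 6.07 to 22.3. *Tnf*, at 352, was highest there too. Without that library the *Il1b* difference between Mertk-/-V1 and B6 WT within replicates 1 to 3 went from 2.21 ± 1.39 to 0.36 ± 0.39, the *Ptgs2* difference from 1.60 ± 0.75 to 0.71 ± 0.44 and the *Nos2* difference from 0.93 ± 0.68 to 0.20 ± 0.52, none of which passed.

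The same library was highest for genes named here after their values were seen. *S100a8* and *S100a9*, abundant in neutrophils and other myeloid cells, were at 359 and 678 normalized counts, against 0 to 19.8 and 6.07 to 108 in the other 17 libraries. The inflammasome sensor *Nlrp3* was at 116 against 1.90 to 12.3, and *Cd14*, the co-receptor for lipopolysaccharide, at 356 against 26.7 to 128.7. *Ly6g*, a defining neutrophil marker, was at 3.16 there and at 0 in the other 17, and the 7 neutrophil genes summed to 2723 there against 84.3 to 1343 elsewhere. Of that sum 1671 came from *Ltf*, which ran from 57.3 to 1249 in the other 17. *Mpo* was at 3.95 against 0 to 0.948, but *Camp* (7.90 against 0.849 to 10.3) and *Elane* (0.790 against 0 to 1.25) were within the range of the others. The *Ly6g*, *Mpo* and *Elane* values are few reads, since 1 read was worth 0.790 normalized counts in that library. The part of neutrophils in these values was not tested.

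**Figure D5:**
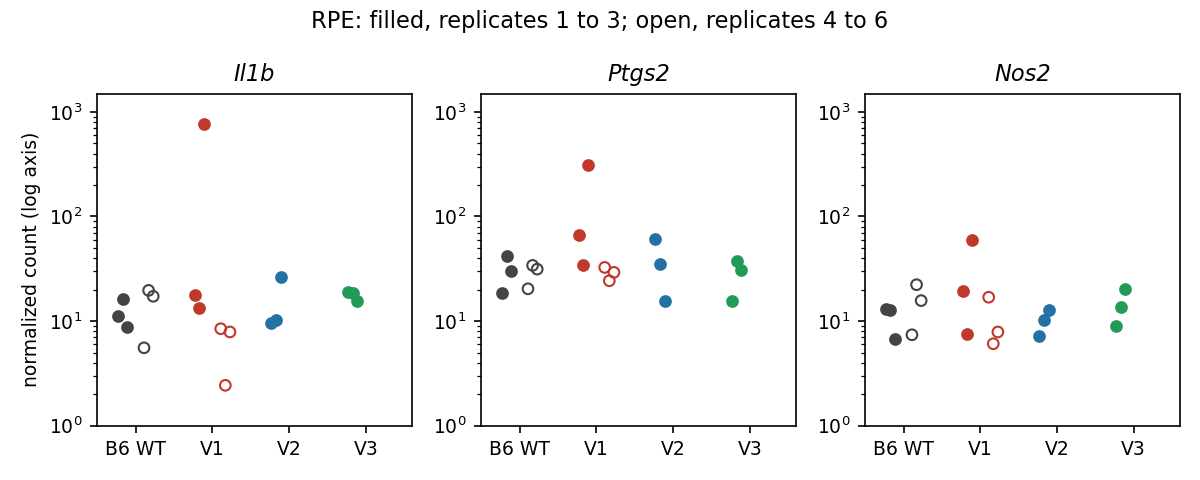
Normalized counts in RPE of *Il1b*, *Ptgs2* and *Nos2* on a log axis, by genotype, one point per library, with replicates 1 to 3 filled and replicates 4 to 6 open. Replicate 3 of Mertk-/-V1 stands at 764, 311 and 59.3, above all 17 other libraries.

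*Il6* and *Il10* stayed under the filter in RPE. *Il6* was at 0 in 13 of 18 libraries, with at most 3.79 normalized counts, and *Il10* was at 0 in 15 of 18, with at most 1.58. The 3 libraries of Mertk-/-V1 in replicates 1 to 3 all held *Il6* (0.802, 3.79 and 0.790), and none of replicates 4 to 6 did. These values are 1, 4 and 1 reads. The first 3 libraries were also deeper, at 27958711 to 34124049 recovered reads beside 19791803 to 20779930 in replicates 4 to 6 of Mertk-/-V1. Exact two-sided permutation tests gave no *Il6* or *Il10* difference an unadjusted p under 0.167, and all adjusted p were 1 over the 21 tests. Untied values of 3 against 6 libraries could reach 0.0238, but with most libraries tied at 0 these tests could not, so they decide little.

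The 2 tissues were set against each other for the 4 genes that passed the filter in both, *Tnf*, *Il1rn*, *Il18* and *Tgfb1*, by testing whether the effect of a knockout differed (edgeR's quasi-likelihood test on recovered reads, an interaction over 30 libraries). The RPE effect minus the BMDM effect was -0.95 for *Il1rn* and 1.21 for *Tnf* in Mertk-/-V1, and neither passed (edgeR adjusted p = 0.766 and 0.698, with 0.464% of 12513 genes passing). Limma on log2 CPM gave 0.49 for the same *Tnf* difference (limma adjusted p = 0.944, 0.384% of genes passing) and -0.77 for *Il1rn* (adjusted p = 0.861). In Mertk-/-V2 and Mertk-/-V3 *Il1rn* differed by -1.42 and -1.32 (edgeR adjusted p = 0.489 and 0.792, with 0.168% and 0.048% of genes passing). So the rise of *Il1rn* in Mertk-/-V1 BMDMs, at 1.02, and its RPE value, 0.23 ± 0.56, were not shown to differ.

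With replicates 4 to 6 of RPE left out, *Tnf* passed in Mertk-/-V1 (1.72, edgeR adjusted p = 0.0421, 0.679% of genes passing) and in Mertk-/-V3 (-1.39, adjusted p = 0.0483). *Il1rn* then passed in Mertk-/-V2 (-2.02, edgeR adjusted p = 0.0170) and Mertk-/-V3 (-1.91, adjusted p = 0.0124), but so did 5.84% and 16.5% of all genes, and the *Il1rn* and *Tnf* values follow the choice of B6 WT libraries given above.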

How the data were processed

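PolyA RNA was sequenced in 30 libraries, 12 of BMDMs and 18 of RPE. Per the study's methods, 150 bp paired-end reads were trimmed with btrim and aligned with STAR to GRCm38, and the counting tool and annotation release are not given in the sources used here. The authors deposited one table per tissue, a signal of reads per gene divided by one DESeq2 size factor per library, each tissue scaled on its own. Dividing each library by its smallest step gave whole reads for 100% of values within 0.01 reads, and these recovered reads were used for the count tests, depths and RPKM (over the exon union of GENCODE M21). The genes were chosen by symbol, and genes, lists and the sets of RPE replicates were chosen with earlier results of these data known. Genes named outside the 10 are *Mertk*, with *Tyro3* and *Axl*, up to 4 passing genes per list and comparison, and the 3 genes that followed a passing member most closely, and genes the report says were chosen after their values were seen. All comparisons within a tissue share its B6 WT libraries.

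log2(value + 1) was fitted per tissue with limma 3.58.1 (trend, R 4.3.3) over all 4 genotypes, for genes with a mean of at least 10, with Benjamini-Hochberg adjustment over all genes tested. Fold changes are on that scale, which understates low genes. edgeR 4.0.16 and DESeq2 1.42.0 were run on the recovered reads as alternatives, and edgeR tested the difference between tissues. Members under the filter had exact two-sided permutation tests of the mean normalized count (scipy 1.17.1), adjusted over 21 tests. Other alternatives were a pseudocount of 5, no filter, scaling to library totals, fits of only the groups compared, a replicate block, list covariates, sets of replicates, and each library left out in turn. In RPE all 6 same-numbered pairs of B6 WT and Mertk-/-V1 correlated at over 0.1 after group means were removed (r = 0.119 to 0.724), so by that rule the numbers paired these, but many libraries of the same set with different numbers correlated as closely, and pairs with Mertk-/-V2 and Mertk-/-V3 ran from -0.462 to 0.592. The fitting code was tested on simulated data. Reads without molecular identifiers are not independent molecules, so limits from counts cover counting error only. The whole-gene count of *Mertk* includes undeleted exons. Strand of counting is not given, so antisense reads cannot be told apart.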

Additional observations from a re-analysis of the deposited data

Results flagged for a closer look

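Among the 19 groups of 6 RPE libraries in which a member was read, 6 had a highest sample whose gap to the next, as a share of the range, exceeded Dixon's 95% critical value of 0.625. Chance flags about 1 in 20 groups of continuous values, but in a group whose other 5 libraries are at 0 any single read exceeds the critical value, as for *Il6* in B6 WT and *Il10* in Mertk-/-V1, so the 6 of 19 is not read against that rate. In replicate 3 of Mertk-/-V1, *Il1b* was at 764, *Ptgs2* at 311 and *Nos2* at 59.3 normalized counts, and *Il10* at 1.58, which is 2 reads. In replicate 2, *Il6* was at 3.79 in Mertk-/-V1 and at 1.17 in B6 WT, where 1 read was counted. The *Il6* and *Il10* values rest on 1 to 4 reads each.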

How the results depend on the processing

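No result reversed. The *Il1rn* call in Mertk-/-V1 BMDMs held in every alternative other than the covariate below, with a log2 fold change of 0.91 to 1.19 and an adjusted p of 2.47e-11 to 0.00749 against B6 WT, and 0.76 to 1.05 and 6.77e-11 to 0.0178 against the other knockouts. With the immediate early genes as a covariate, added after the data were seen, the members called went from 1 to 0 in both comparisons, and the cause was not tested. In BMDMs replicate numbers did not pair the samples, since same-numbered libraries correlated at -0.302 to 0.363 after group means were removed. With a replicate block, BMDM calls were unchanged among members, while the genes called went from 949, 618 and 157 to 565, 305 and 77 in the 3 lines in order. In RPE all same-numbered pairs correlated at over 0.1 only between B6 WT and Mertk-/-V1. Libraries of these genotypes with different numbers correlated as closely, so pairing by number was not shown. The block changed no call of a member between B6 WT and Mertk-/-V1. It called 1 member in Mertk-/-V2 (*Il1rn*, -1.75, limma adjusted p = 0.0323), 3 in Mertk-/-V3 (*Tnf* -1.97, *Il1rn* -1.85 and *Il1a* -1.37) and 3 in Mertk-/-V1 against the other knockouts (*Tnf* 1.71, *Il1rn* 2.02 and *Il1a* 1.51), while 3.75%, 29.8% and 12.4% of all genes passed. The macrophage list as a covariate called 1 in Mertk-/-V3 RPE (*Il1rn*, -2.13, limma adjusted p = 0.0273), with 11.9% of all genes passing. With RPE replicates 1 to 3 only, the difference between tissues called 1, 1 and 2 members for the 3 lines in order, against 0 with all libraries. Over single members, 290 of 292 alternative values in BMDMs, 676 of 684 in RPE and 20 of 24 between tissues stayed on their side of the threshold, and the sign of uncalled values changed in 15, 60 and 1. In BMDMs *Il6* was read in 1, *Nos2* in 2 and *Il1b* in 7 of 12 libraries, and in RPE *Il6* in 5 and *Il10* in 3 of 18.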
